A study of Mus musculus with 8 samples.

Results

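The transcripts described here are those of 5 replication-dependent histone genes, H2bc22, H4c8, H3c1, H2bc4 and H3c14, set beside Slbp, which encodes the stem-loop binding protein of their mRNAs, and H3f3b, a gene of the variant histone H3.3. They were taken from expression arrays of mouse dermal fibroblasts as every probe set, the group of short probes that reports on a transcript, that the platform annotation gives to exactly 1 of these 7 symbols. This gave 13 probe sets, 8 for the histone genes and 5 for the pair set beside them, of 45141 probe sets on the arrays and 17097 genes with a probe set of a single symbol. The genes were selected on the differences between old and young mice in these arrays, with Slbp and H3f3b as contrast. The difference between the ages is therefore given for them as a description, without a p-value, and a count of those past a threshold supports nothing about histones as a class.

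All animals were male C57Bl/6 mice with no altered gene or treatment in the labels: 4 young mice of 2 months and 4 old mice of 18 months, with 1 array each. After the subdermis was scraped away, the skin was treated with collagenase 1. The sorted cells carried CD34 and Pdgfra at their surface and lacked EpCam, CD31, CD24, CD117 and CD45. RNA of 5000 cells per mouse was amplified for 21 cycles before labelling. Each collection day supplied a pair of mice of either age. The labels do not say which ones, but the titles carry numbers in 2 unbroken runs, each with 2 young and 2 old mice (replicates 1 and 2 of either age in run 1, replicates 3 and 4 in run 2).

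Chromatin is built on histone octamers, and most histone protein is made during S phase from clusters of replication-dependent genes. Their mRNAs usually carry no poly(A) tail. They end instead in a conserved stem-loop, which Slbp binds and which governs their processing, translation and decay. Variant histones such as H3.3 come from single genes with introns and polyadenylated mRNAs, are made throughout the cell cycle and are put in place outside replication. Some replication-dependent genes can also give polyadenylated transcripts in cells that have left the cell cycle. How the RNA was primed is not given in the sources used here, so the share of each kind of transcript in a value is unknown.

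By gene order in RefSeq (GRCm38.p6), the 5 histone genes lie inside histone clusters. H2bc22 lies between H2ac22 and H2bc23, H3c1 between H4c1 and H1f1, H2bc4 between H2ac6 and H1f6, and H3c14 between H2ac18 and H4c14. H4c8 is at a cluster's edge, between Btn2a2 and H2ac10. Among the 10 nearest protein-coding genes, the number of histone genes was 10 for H2bc22, 9 for H2bc4, 8 for H3c14, 6 for H3c1 and 5 for H4c8. It was 0 for Slbp and 0 for H3f3b.

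To set the upstream sequence of histone genes that were lower in old mice beside that of a histone gene that was not, the RefSeq promoter windows of H2bc22, H4c8 and H3c14 are printed with that of H3f3b. They span the 250 bases before the annotated start in GRCm38.p6, read 5′ to 3′ on the strand of the gene. Capitals mark matches, on either strand, to CCAAT, to the TATA-box letters TATAAA, to the octamer ATTTGCAT and to the GC box GGGCGG.
H2bc22, chr13:21787238-21787487, strand +: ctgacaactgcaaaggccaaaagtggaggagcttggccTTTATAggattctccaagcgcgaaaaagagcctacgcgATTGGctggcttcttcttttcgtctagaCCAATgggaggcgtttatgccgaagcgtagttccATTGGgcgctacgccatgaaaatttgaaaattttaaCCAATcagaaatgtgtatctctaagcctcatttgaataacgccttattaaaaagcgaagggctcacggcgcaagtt
H4c8, chr13:23530794-23531043, strand +: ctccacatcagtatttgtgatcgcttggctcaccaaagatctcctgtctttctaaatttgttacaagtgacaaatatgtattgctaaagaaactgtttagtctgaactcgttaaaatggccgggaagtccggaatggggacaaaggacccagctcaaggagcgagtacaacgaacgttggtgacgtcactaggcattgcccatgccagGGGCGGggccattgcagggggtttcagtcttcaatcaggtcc
H3c14, chr3:96246435-96246684, strand +: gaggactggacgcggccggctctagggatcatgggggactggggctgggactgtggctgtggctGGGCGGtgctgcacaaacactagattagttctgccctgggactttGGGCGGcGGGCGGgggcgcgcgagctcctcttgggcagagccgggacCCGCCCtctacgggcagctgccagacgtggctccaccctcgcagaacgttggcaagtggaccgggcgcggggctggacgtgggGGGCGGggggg
H3f3b, chr11:116024505-116024754, strand -: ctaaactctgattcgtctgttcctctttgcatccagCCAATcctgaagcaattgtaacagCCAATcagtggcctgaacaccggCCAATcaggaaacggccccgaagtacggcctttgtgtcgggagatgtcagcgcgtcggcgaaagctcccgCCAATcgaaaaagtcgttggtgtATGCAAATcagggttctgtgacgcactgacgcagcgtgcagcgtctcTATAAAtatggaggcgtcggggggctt
A window was found for 5 of the 7 genes, and H2bc4 and H3c1 had none.

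The windows of the histone genes did not share one set of motifs. That of H2bc22 held 4 matches to CCAAT, at 174, 146, 112 and 76 bases before the start. It held 1 to TATAAA, on the opposite strand at 212 bases. That of H4c8 held 1 GC box, 42 bases before the start, and that of H3c14 held 5. The window of H3f3b held 4 matches to CCAAT, the letters TATAAA 27 bases before the start and the octamer at 74 bases. The Slbp window, not printed, held 3 matches to CCAAT. Of 32851 promoter windows of this length, 33.8% held CCAAT, 32.7% the GC box, 12.4% TATAAA and 1.60% the octamer. The motifs were chosen with these windows in view, and a match is a run of letters, not a bound site.

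The arrays hold RMA values on the log2 scale, so a difference of 1 is a factor of 2. Array medians ran between 5.06 and 5.14. The median over all probe sets of their mean across the 8 arrays, 5.10, served as the limit of dim probe sets. The 23 non-specific control probe sets had a median of 3.91 and ran from 2.98 to 7.20. Some values above the dim limit thus lie within the range of these controls. Of the markers of the sort, Cd34 was bright at 10.82 ± 0.06 in young and 11.01 ± 0.04 in old mice (SD, n = 4 each), while Pdgfra was dim at 5.06 ± 0.25 and 4.47 ± 0.28. Of the markers of other cell types, Ptprc (leukocytes) lay at 3.39 to 3.60 and Adipoq (adipocytes) at 3.50 to 3.77 over all mice. Others of the same lists were brighter. Of 8 leukocyte markers, 3 lay above the dim limit: Csf1r at 8.54 to 9.02, Cd68 at 6.33 to 7.26 and Cd79a at 6.39 to 7.28. Cd79a changed by 0.455 (limma adjusted p = 0.0544). Of 3 adipocyte markers, 1 lay above that limit, Retn at 5.57 to 6.12. Mlana (melanocytes) rose by 2.88 and Kcnj8 (mural cells of vessels) by 1.16, the only 2 of 35 such markers past limma's threshold. The other 5 melanocyte markers changed by -0.09 (Pmel) to 0.12 (Tyr) and the other 4 mural markers by -0.05 (Rgs5) to 0.09 (Acta2). The summed level of the 7 keratinocyte markers ran from 37.26 to 41.12 in young and from 39.32 to 46.51 in old mice. It was highest in young replicate 4 and old replicate 3. Epcam, which the sort selected against, changed by 0.40 with groups apart (limma adjusted p = 0.0584), and Krt5 by 1.12 (0.221). Of the 7, only Cdh1 had a change below 0, at -0.03. The part of all these markers in the histone values was not tested. Fewer cells with a transcript and less of it per cell cannot be told apart in such bulk samples.

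Transcripts of all 5 histone genes were lower in old fibroblasts on their brightest probe sets, by 2.15-fold to 3.54-fold, and no old mouse reached the lowest young mouse for any of them. Those of Slbp and H3f3b differed by no more than 1.10-fold on the same measure. In limma over all 17097 genes, the 5 histone genes passed an adjusted p of 0.05 downward, where 2.15% of all genes did, and Slbp and H3f3b did not pass. Groups failed to overlap, with old mice lower, for the same 5 genes and for 5.21% of all genes. These counts follow from how the genes were picked. The median change of the 5 was -1.39, and that of all genes tested was 0.01.

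**Figure D1:**
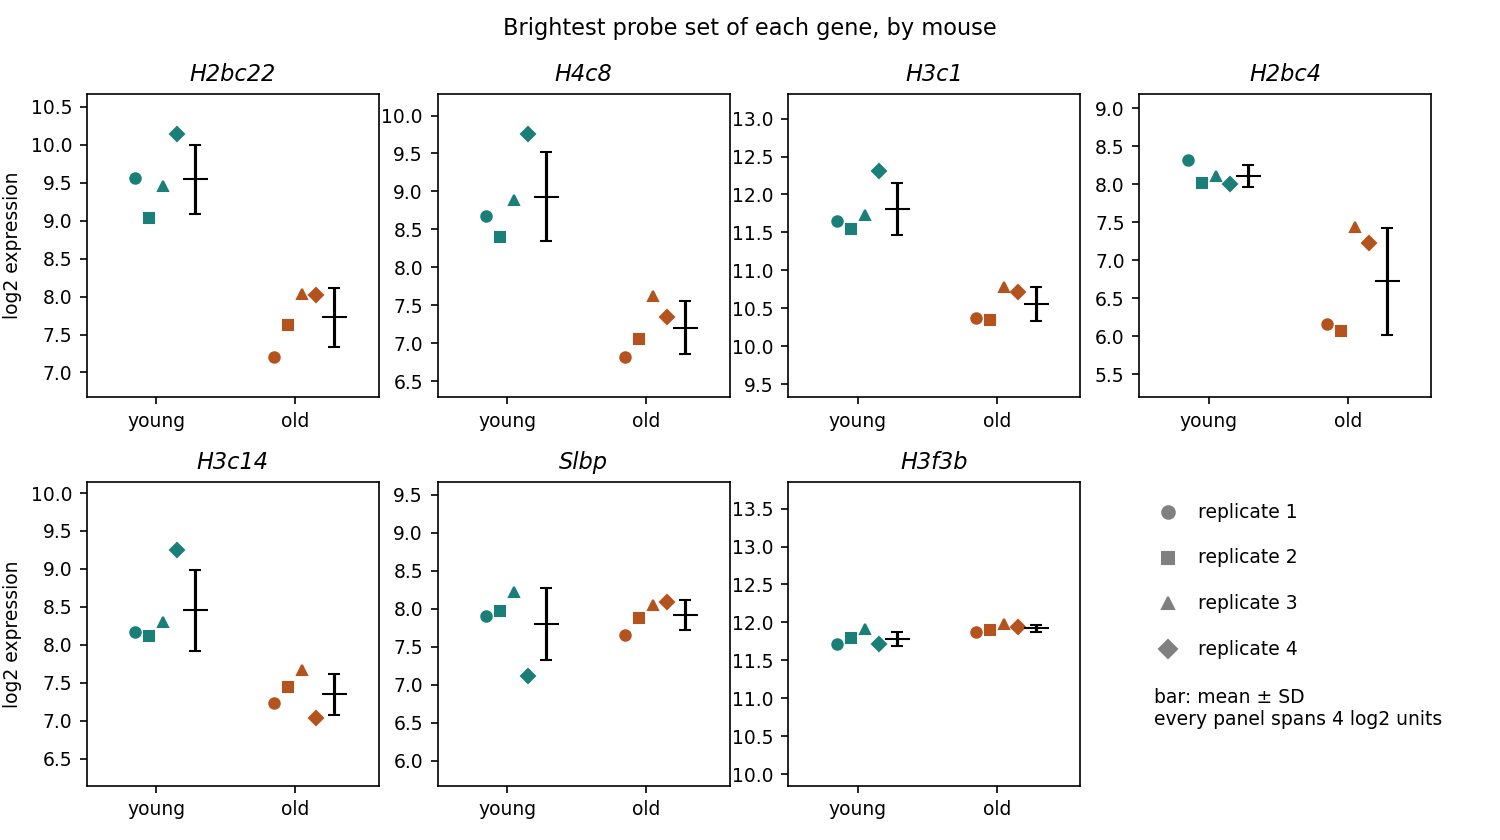
Log2 expression (vertical axes, each spanning 4 log2 units) of the brightest probe set of each gene in the 4 young and 4 old mice, with a marker shape per replicate number and the mean ± SD beside the points. The young and old points are apart in the 5 histone panels and overlap in the panels of Slbp and H3f3b; young replicate 4 is the top young point for 4 histone genes and the bottom one for Slbp.

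H2bc22 and H2bc4 encode histone H2B, a core histone that pairs with H2A in the outer part of the octamer. The brightest probe set of H2bc22 (1452540_PM_a_at) read 9.56, 9.04, 9.45 and 10.14 in young replicates 1 to 4 and 7.21, 7.63, 8.04 and 8.02 in old replicates 1 to 4. The lowest young mouse stood 1.00 above the highest old mouse, beside ranges of 1.10 among young and 0.83 among old mice. The means were 9.55 ± 0.45 and 7.72 ± 0.39 (SD, n = 4), a change of -1.82 ± 0.24 (SE), or 3.54-fold lower in old mice. A further probe set made to the same transcript (1427762_PM_x_at) read 8.51, 8.28, 8.09 and 8.46 in young and 7.83, 7.01, 7.63 and 7.26 in old mice. Its groups were also apart, by 0.26, with a smaller change of -0.90 ± 0.17. The x in its name marks probes that can also bind similar sequences, which H2B genes share widely.

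H2bc4 was even among the young and split among the old mice. Its single probe set (1418072_PM_at) read 8.32, 8.02, 8.11 and 8.00 in young and 6.16, 6.07, 7.43 and 7.23 in old mice. Old replicates 1 and 2, of title run 1, lay more than 1 unit below old replicates 3 and 4, of run 2. The change was -1.39 ± 0.29 (SE; means 8.11 ± 0.15 and 6.72 ± 0.71, SD, n = 4), or 2.62-fold lower. Within run 1 it was -2.06 and within run 2 -0.73. Whether a run is a collection day is not stated.

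H4c8 encodes histone H4, which forms the centre of the nucleosome together with H3. Its probe set (1428014_PM_at) read 8.67, 8.40, 8.89 and 9.76 in young and 6.82, 7.05, 7.62 and 7.34 in old mice. The groups were apart by 0.78, and young replicate 4 was the highest of all. The change was -1.72 ± 0.28 (SE; means 8.93 ± 0.59 and 7.21 ± 0.35, SD, n = 4), or 3.30-fold lower, and -1.45 without young replicate 4.

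H3c1 and H3c14 encode the replicative forms of histone H3. The bright probe set of H3c1 (1422948_PM_s_at) read 11.65, 11.54, 11.73 and 12.31 in young and 10.37, 10.35, 10.78 and 10.71 in old mice. The old mice lay within 0.43 of each other, and the lowest young mouse stood 0.76 above them. The change was -1.26 ± 0.17 (SE), or 2.39-fold lower. The bright probe set of H3c14 (1460314_PM_s_at) read 8.17, 8.11, 8.30 and 9.25 in young and 7.24, 7.45, 7.67 and 7.04 in old mice. Young replicate 4 stood far above the other young mice, and the groups were still apart by 0.44. The change of H3c14 was -1.11 ± 0.24 (SE), or 2.15-fold lower, and -0.84 without that mouse. The s in both names marks probes shared by several transcripts, so these values can hold other H3 genes.

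The remaining probe sets of these H3 genes showed no such difference, at a level near the median of the non-specific controls. That of H3c1 (1422947_PM_at) lay between 4.07 and 4.42 in all 8 mice, with a change of 0.12 ± 0.08. That of H3c14 (1442051_PM_at) lay between 3.71 and 3.94, with groups apart by 0.03 and a change of -0.12 ± 0.06. At such levels a change could be missed. The lower H3 values rest on 1 bright shared probe set per gene.

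**Figure D2:**
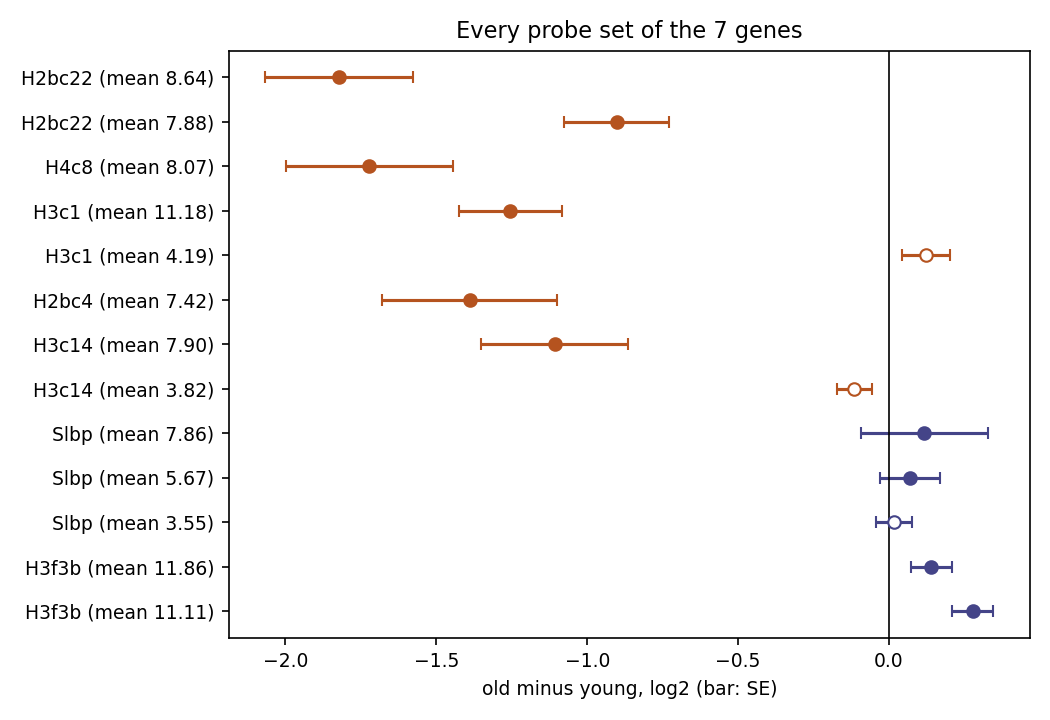
Change from young to old (log2, horizontal axis; bars are the SE from limma) for each of the 13 probe sets, labelled with the gene and the mean level over 8 mice; open points are dim probe sets, and the histone genes are in orange. The 6 bright histone probe sets lie between -1.82 and -0.90, and the 2 dim ones and those of Slbp and H3f3b between -0.12 and 0.28.

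Slbp, the binder of the histone stem-loop, differed by less than the spread between mice. Its brightest probe set (1460168_PM_at) read 7.90, 7.97, 8.22 and 7.12 in young and 7.66, 7.88, 8.05 and 8.09 in old mice. All old mice lay inside the young range, and young replicate 4 was the lowest of all 8. The change was 0.12 ± 0.21 (SE), and -0.11 without young replicate 4, so its sign rests on that mouse. A dimmer probe set (1430058_PM_at) ran from 5.34 to 5.81 in young and from 5.67 to 5.78 in old mice, and a dim one (1437803_PM_at) from 3.49 to 3.64 over all mice, with changes of 0.07 ± 0.10 and 0.02 ± 0.06.

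H3f3b, the H3.3 gene, was nearly even and slightly higher in old mice. Its brightest probe set (1455725_PM_a_at) read 11.72, 11.79, 11.91 and 11.72 in young and 11.88, 11.90, 11.98 and 11.94 in old mice. The groups overlapped, with young replicate 3 above 2 old mice. The change was 0.14 ± 0.07 (SE). Its other probe set (1420376_PM_a_at) read 10.95, 10.95, 11.11 and 10.88 in young and 11.23, 11.19, 11.32 and 11.26 in old mice. There the groups were apart by 0.08, with a change of 0.28 ± 0.07, or 1.21-fold higher in old mice. Both probe sets were among the brighter ones on the arrays, whose maxima lay at 13.22 to 13.32.

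The deviations of the 5 histone genes within an age ran largely in parallel, though which gene stood apart depended on young replicate 4. Young replicate 4 was the highest young mouse for 4 of the 5 (H2bc22, H4c8, H3c1 and H3c14) and the lowest for H2bc4, and old replicate 3 was the highest old mouse for all 5. Averaged over the 5 genes, young replicates 1 to 4 deviated from the young mean by -0.10, -0.35, -0.08 and 0.52, and old replicates 1 to 4 from the old mean by -0.35, -0.20, 0.40 and 0.16. Pearson's r of these deviations over the 8 arrays ran from 0.66 to 0.97 in the 6 pairs without H2bc4 and from -0.04 to 0.54 in the 4 pairs with it. Without young replicate 4, over 7 arrays, it was H3c14 that stood apart: r ran from 0.11 to 0.48 in its 4 pairs and from 0.82 to 0.95 in the other 6. These are descriptions: the arrays share a normalization, and the H3 and H2B probe sets can share transcripts. Slbp deviated by -0.68 in young replicate 4, opposite to H2bc22, H4c8, H3c1 and H3c14, while H2bc4 deviated by -0.11.

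Control probe sets for RNA quality differed little between the ages. The 3′ minus the 5′ value of the beta-actin controls ran from -0.61 to -0.41 in young and from -0.66 to -0.51 in old mice, and that of Gapdh from -0.21 to -0.08 and from -0.13 to -0.04. Young replicate 4 stood at opposite ends of the young range in the 2 controls, highest for beta-actin (-0.41) and lowest for Gapdh (-0.21). The part of this in its histone values was not tested.

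**Figure D3:**
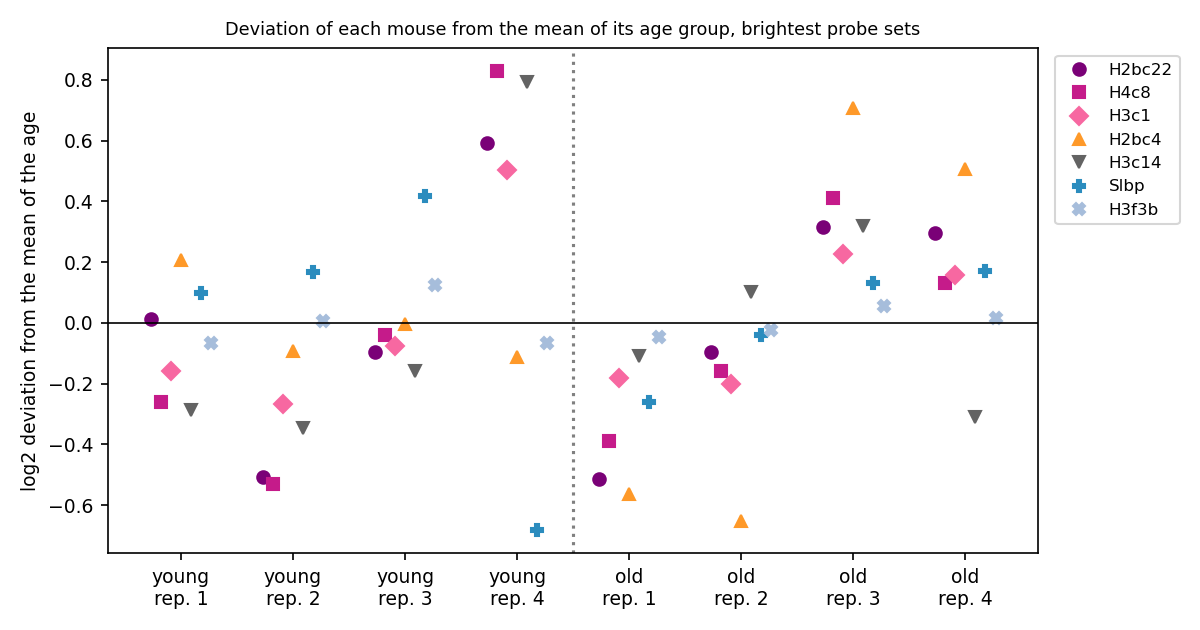
Deviation of each mouse from the mean of its age group (log2, vertical axis) for the brightest probe set of each of the 7 genes. Young replicate 4 lies at 0.50 to 0.83 for H2bc22, H4c8, H3c1 and H3c14 and at -0.68 for Slbp, and old replicates 1 and 2 lie apart from 3 and 4 for H2bc4.

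By title run, the brightest probe sets of the histone genes were higher in run 2 within either age, with exceptions. These were H2bc4 in young mice (-0.115) and H3c14 in old mice, where the difference was 0.01. The further bright probe set of H2bc22 differed by -0.12 in young and 0.025 in old mice, against 0.495 and 0.61 for its brightest one. The median over the 5 genes of run 2 minus run 1 was 0.50 in young and 0.55 in old mice. In young mice it was 0.15 without young replicate 4 and 0.84 without young replicate 3. The change with age kept its sign within each run for all 5, as it must where groups do not overlap. It was -1.88 and -1.77 for H2bc22, -1.60 and -1.85 for H4c8, -1.24 and -1.28 for H3c1, and -0.80 and -1.42 for H3c14 in runs 1 and 2. For Slbp it was -0.17 and 0.40, and for H3f3b 0.14 and 0.15. With the run as a block, limma called the same 5 genes.

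With 1 mouse left out in turn, the calls of H2bc22, H4c8 and H3c1 held in all 8 fits, while H2bc4 and H3c14 each lost theirs in 6. The count of histone genes past limma's threshold was 3 without young replicate 1, young replicate 3, old replicate 1 or old replicate 2, and 4 without any of the other mice. Of all 17097 genes, 427 to 606 passed in these fits, against 679 with all 8 mice. The 5 were picked on this contrast, so a call that held supports nothing about histones. All 5 changes stayed below 0 in these fits, between -1.99 and -0.84, as they must where groups do not overlap. With all probe sets of a gene averaged, the changes of H3c1 and H3c14 were -0.57 and -0.61, through their dim probe sets.

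The genes whose deviations within an age most resembled the mean of the 5 histone genes were Sulf2, Nop10, Rab10, Pdcd5 and Smc6. Their Pearson's r over the 8 arrays ran from 0.98 to 0.99 among 10553 genes above the dim level, with no p-value. None of these 5 passed limma for age, with changes from -0.41 (Nop10) to -0.08 (Sulf2). Among the other replication-dependent histones above the dim level, r was 0.76 for H1f4, 0.71 for H3c4, -0.14 for H3c7 and -0.17 for H1f2. Their ranks among the 10553 genes were 1012, 1340, 6010 and 6206, so many genes that are no histones followed the mean more closely.

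The other replication-dependent histone genes on the arrays were mostly dim and none passed. Of 10 with a probe set of their own, 6 were dim, and in limma 0 of 10 passed, where 3.97% of all genes did (3 at an unadjusted p under 0.05, where 15.1% of all genes were). All 10 had a change below 0, as did 46.2% of all genes, and their median was -0.10. H1f4, a linker histone that binds the DNA between nucleosomes, read 7.80, 7.36, 7.45 and 8.12 in young and 6.13, 7.02, 6.98 and 6.98 in old mice. Its groups were apart, and its change was -0.91 ± 0.23 (SE, limma adjusted p = 0.0615). It passed with the title run as a block (limma adjusted p = 0.046), with dim genes left out (0.0365) and with a prior by mean level (0.0362), and its adjusted p ran up to 0.148 without young replicate 1. A dim probe set of H1f4 changed by 0.10.

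The linker histone gene H1f2 overlapped between the ages, from 6.52 to 7.17 in young and from 6.02 to 6.91 in old mice, with a change of -0.27 ± 0.22 (limma adjusted p = 0.669). For the H3 genes H3c4, H3c7 and H3c15 the changes were -0.28 ± 0.10, -0.10 ± 0.07 and -0.28 ± 0.09 (limma adjusted p = 0.223, 0.609 and 0.137). The groups of H3c4 were apart, with old mice at 6.85 to 6.87 and young mice at 6.96 or more. Those of H3c15, at dim levels, were also apart, with old mice at 3.56 to 3.80 and young mice at 3.84 to 4.14. A further, dim probe set of H3c4 changed by -0.06 and a further one of H1f2 by -0.38 ± 0.30, both with overlapping groups. The H2B gene H2bc21, dim too, changed by -0.09 ± 0.08 (limma adjusted p = 0.672). Since the genes with the large changes had been picked out beforehand, this remainder is not a random sample of histone genes.

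**Figure D4:**
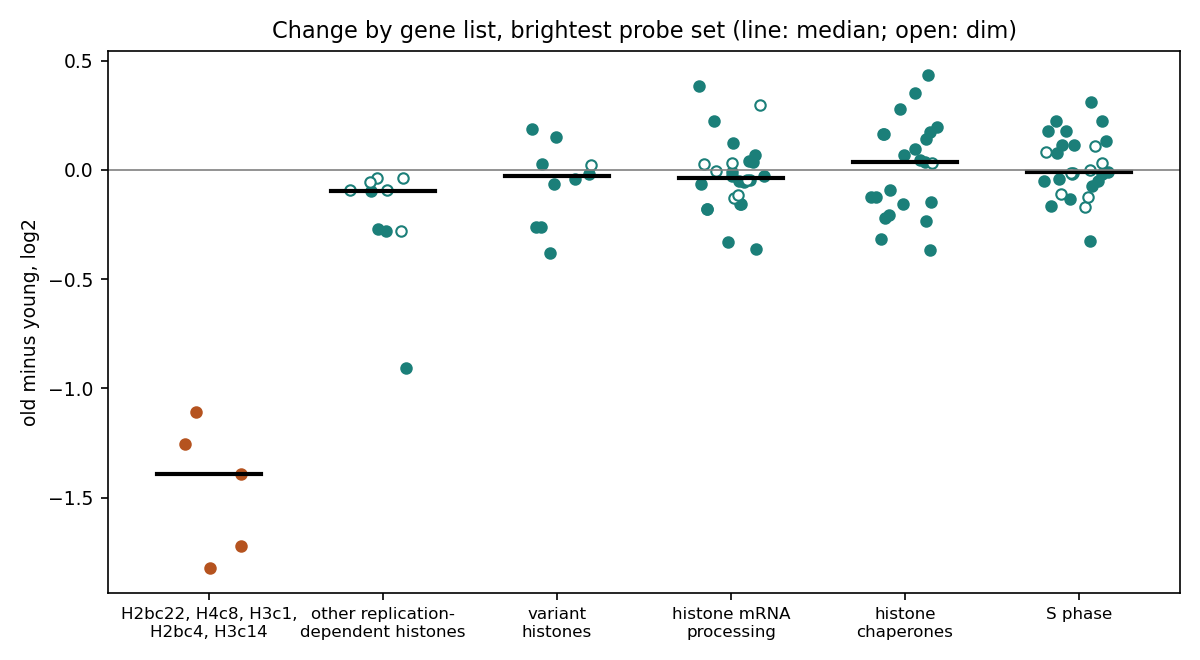
Change from young to old (log2, vertical axis) of each gene by its brightest probe set, for the 5 histone genes and 5 lists; lines are medians and open points are dim genes. The 5 genes lie between -1.82 and -1.11, H1f4 at -0.91 is the only other histone gene beyond -0.5, and the medians of the 5 lists lie between -0.10 and 0.04.

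Variant histone genes other than H3f3b gave no call either. In limma 0 of 10 passed, beside 3.97% of all genes, and 4 had an unadjusted p under 0.05, beside 15.1%, with a median of -0.03. H2az2, which encodes a form of H2A.Z, changed by -0.38 ± 0.09 (limma adjusted p = 0.0584), and H2az1, the gene of the other form, by 0.19 ± 0.07 (0.225). Neither pair of groups overlapped. H2aj, a variant H2A gene, changed by -0.26 ± 0.10 (limma adjusted p = 0.228). H2az2 passed without old replicate 1 (-0.29, limma adjusted p = 0.0383) and after renewed quantile normalization (0.0202). Its adjusted p was higher with the mean of probe sets (-0.24, 0.255), with a prior by mean level (0.112) and without young replicate 3 (0.136).

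Genes of histone transcription and mRNA processing gave a single call. In limma 1 of 26 rose, where 1.82% of all genes did, and none fell, with a median of -0.04. Cstf3, a subunit of the cleavage stimulation factor of mRNA 3′ ends, averaged 5.50 ± 0.15 in young and 5.88 ± 0.10 in old mice (SD, n = 4) and rose by 0.39 ± 0.09 (limma adjusted p = 0.0476). Its call was lost without any mouse other than young replicate 2 or old replicate 1, at adjusted p from 0.0988 (without young replicate 4) to 0.129 (without young replicate 3 or old replicate 2), with arrays centred on their median (0.064), with a prior by mean level (0.0524) and with probe sets averaged (0.119). Lsm10 and Lsm11, which belong to the U7 particle that cuts histone mRNA, changed by -0.03 ± 0.20 and -0.01 ± 0.09. Npat, the cyclin E-Cdk2 target that activates histone genes, and Eri1, the exonuclease that trims the stem-loop, were dim at 3.94 and 4.59 in young mice and changed by -0.05 ± 0.07 and -0.12 ± 0.10. These 4 were picked for their roles after their values were seen.

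Histone chaperones, which carry histones to chromatin, gave no call. In limma 0 of 23 passed (3.97% of all genes did) and 2 had an unadjusted p under 0.05 (15.1% of all genes), with a median of 0.04. Ipo4, an importin of H3 and H4, changed by -0.32 ± 0.09 (limma adjusted p = 0.103), Daxx, an H3.3 chaperone, by -0.16 ± 0.07 (0.290) and Anp32e, a chaperone of H2A.Z, by 0.43 ± 0.21 (0.369). Anp32e passed with the title run as a block (limma adjusted p = 0.00334) and Ipo4 without young replicate 4 (-0.40, limma adjusted p = 0.0247). The summed level of the 23 genes was 170.07 to 173.91 in young mice, highest in replicate 4, and 168.41 to 173.82 in old mice.

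S phase genes, too, gave no call. In limma 0 of 28 passed, against 3.97% of all genes, and 2 had an unadjusted p under 0.05, against 15.1%, with a median of -0.01. Pcna, the sliding clamp of DNA polymerases, was higher in old mice by 0.31 ± 0.09 (limma adjusted p = 0.118). The replicative helicase gene Mcm5 changed by -0.33 ± 0.15 (0.329) and Rrm2, a subunit of ribonucleotide reductase, by 0.23 ± 0.13 (0.472). The proliferation marker genes Mki67 and Top2a, named for their role and not by p, were dim. They ran from 4.60 to 5.19 and from 4.27 to 4.67 over the 8 mice. Most of the list was brighter: 19 of the 28 genes lay above the dim limit, among them Cdk1 (6.11 to 6.68) and Tyms (7.13 to 7.72). The summed level of the 28 genes was 160.02 to 164.73 in young and 161.17 to 163.04 in old mice. The lowest sums were those of young replicates 4 and 3, at 160.02 and 160.19.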

How the data were processed

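Per the submitters' processing notes, the authors made the deposited log2 values with RMA and affy; no version, parameter or filter is given in those notes. RMA adjusts background, brings arrays to one distribution and summarises probes. The table held 45141 probe sets for 8 arrays, with 0 identical pairs and 0 unused columns. The number of arrays limits the precision.

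Names came from the platform annotation: 28898 probe sets had 1 symbol, 551 several and 15692 none, and only the first kind was named. The brightest probe set stood for each of 17097 genes. Limma 3.58.1 in R 4.3.3 (lmFit, eBayes, 2-sided) compared old with young mice, with Benjamini-Hochberg adjustment over all of them. It was also run on simulated arrays, with an outcome not given here. Their values were drawn independently for each gene and array, without deviations shared by the genes of a mouse. SEs of further probe sets come from a fit on all 28898. Tables and plots used Python 3.11.15, pandas 2.3.3 and matplotlib 3.10.9.

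The genes and lists were chosen with earlier results of these data known. Named are every member, list genes past the threshold (else the 3 smallest p, and 6 of the other replication-dependent histones) and the 5 most alike genes. The alternatives were eBayes priors by mean level or robust, the mean of probe sets, no dim genes, median centring, renewed quantile normalization, the title run as a block, and each mouse left out; a fit on every probe set was added after seeing the data. The replicate numbers used here follow the order of the samples and pair nothing.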

Additional observations from a re-analysis of the deposited data

Results flagged for a closer look

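Of 66 groups of 4 mice checked for a value far from the rest, 3 held one, and chance flags about 1 in 20. H3c14 read 9.25 in young replicate 4, against 8.11 to 8.30 in the other young mice. The dimmer probe set of Slbp read 5.78 in old replicate 3, against 5.67 to 5.68 in the other old mice. H1f4 read 6.13 in old replicate 1, against 6.98 to 7.02 in the other old mice.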

How the results depend on the processing

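The changes of the 5 histone genes, picked on this contrast, stayed below 0 in all 15 alternatives (75 values), and the 5 genes passed limma in each alternative that kept all 8 mice. For much of this the sign was fixed beforehand. The priors, leaving out dim genes and the title run block do not alter the change itself. With groups that do not overlap, leaving out a mouse cannot turn it. The mean of probe sets moved the changes of H2bc22, H3c1 and H3c14 to -1.36, -0.57 and -0.61, and of genes outside these 5 it took H1f4 to -0.40, H2az2 to -0.24, H3c4 to -0.17, H2aj to -0.16, Cstf3 to 0.19, Mcm5 to -0.15, Eri1 to -0.018 and Slbp to 0.068. Leaving out single mice gave 3 to 4 members past the threshold, 427 to 606 genes in all, 0 other replication-dependent histones, 0 to 1 variant histones, 0 to 1 processing genes, 0 to 1 chaperones and 0 S phase genes, and medians by title run of 0.15 to 0.84 in young and 0.40 to 0.66 in old mice. With every probe set fitted on its own, 6 of the 13 members' probe sets passed, all lower, and 0 of the other replication-dependent histones. The share of all probe sets that passed in that fit is not given here. As the members were picked on this contrast, the count supports nothing about histones. The other replication-dependent histones gave 1 with a prior by mean level, 1 with dim genes left out and 1 with the title run block (H1f4 each time; its limma adjusted p ran from 0.0362 to 0.148 over its settings). Variant histones gave 1 after renewed quantile normalization (H2az2) and chaperones 1 with the title run block (Anp32e). Processing genes gave 0 with a prior by mean level, with the mean of probe sets and with median centring, where Cstf3 lost its call. The change of Lsm10 ran from -0.18 to 0.15 over the fits that left out 1 mouse and was above 0 without young replicates 1 and 3 (0.026 and 0.039) and old replicates 1 and 2 (0.15 and 0.0075), and that of Lsm11 ran from -0.077 to 0.043 and was above 0 after renewed quantile normalization (0.0058) and without young replicates 1 and 2 or old replicate 3 (0.043, 0.0067 and 0.039). The causes were not tested. Leaving out dim genes changes both the number of genes adjusted over and the eBayes prior. The labels pair no mice, and no fit by pairs was run; the title run block gave 919 genes in all and the same 5 members. Signal near the controls limits the dim histone probe sets.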
